A study of Homo sapiens with 8 samples.

Results

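The FOS, JUN and EGR genes and ATF3, which encode immediate early transcription factors, were followed in 2 human acute myeloid leukaemia lines given a compound that the labels call dG. The 10 genes were taken by symbol from a table of 57992 genes: FOS, FOSB, FOSL1, FOSL2, JUN, JUNB, JUND, EGR1, EGR2 and ATF3. The groups were KG1A cells in 10 mM dG, KG1A cells in PBS as vehicle, U937 cells in 10 mM dG and U937 cells in PBS, with 2 libraries each. KG1A cells are immature and carry the progenitor antigen CD34, while U937 cells resemble monoblasts. The medium of every group was RPMI with dialyzed serum, and the time of exposure was not given in the sources used here. The design asks what dG does within each line, and the PBS libraries also allow the lines themselves to be compared.

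The 8 libraries held 21053724 to 31135338 counts, and replicate libraries correlated at r of 0.995 or more on the log2 CPM scale. CPM are counts relative to the scaled library size. The labels do not say that replicate libraries came from separate cultures, so p-values measure the spread between these libraries, which may be technical. CD34 lay at 1195 and 1187 CPM in KG1A dG and at 932 and 931 CPM in KG1A PBS, and at 0.776 CPM or less in every U937 library. The myeloid antigen CD33 lay at 49.1 to 55.4 CPM in U937 and at 0.818 CPM or less in KG1A. MPO, a granule enzyme of myeloid precursors, was at 0.199 CPM or less throughout. LYZ lay at 225 and 219 CPM in U937 dG against 24.7 and 22.7 CPM in U937 PBS. The 9 myeloid markers summed to 2000 and 1998 CPM in U937 dG against 1327 and 1330 CPM in U937 PBS. In KG1A they summed to 3709 and 3718 CPM in dG against 3112 and 3105 CPM in PBS. In the test given below, 6 of 8 were higher and 1 lower in U937, beside 32.4% and 31.5% of all genes. In KG1A 5 were higher and 0 lower, beside 29.6% and 19.6%. The 5 erythroid markers together held 1 read, and EPCAM, KRT19 and MS4A1 were at 0 in every library. The 5 lymphoid markers summed to 22.5 and 21.7 CPM in KG1A dG against 11.01 and 11.5 CPM in KG1A PBS, nearly all of it CD3E. The 6 fibroblast and epithelial markers summed to 4.92 and 4.56 CPM in U937 dG against 1.47 and 1.87 CPM in U937 PBS, mostly COL1A1. The part of these shifts in the results below was not tested. In such bulk RNA, fewer cells that express a gene and less RNA per cell cannot be told apart.

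AP-1 is a family of dimeric transcription factors built from basic leucine zipper (bZIP) proteins. FOS proteins need a JUN partner to bind DNA, whereas JUN proteins can also pair with each other or with ATF proteins such as ATF3. EGR1 and EGR2 are zinc finger factors that bind GC-rich sites and are held in check by the NAB corepressors. Many of these genes are switched on within minutes of a mitogen or stress signal, when mitogen-activated kinases act on serum response factor and its ELK partners at CArG boxes and on CREB and ATF proteins at TGACGT elements. In myeloid cells, JUN and EGR1 are known as partners of the monocyte programme, and ATF3 is known as a stress-induced gene downstream of ATF4.

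The promoters that hold these elements are shown for 6 of the genes, since the elements are where the pathways named above meet the genes. The sequences are RefSeq's, build GRCh38.p14, from the 250 bases before each annotated start, and bases inside a GENCODE 29 exon were left out. EGR1 is shown from chr5:138465229-138465478 on the plus strand and EGR2 from chr10:62816367-62816616 on the minus strand. FOS is shown from chr14:75278578-75278773 and FOSB from chr19:45467746-45467994, both on the plus strand. JUND is shown from chr19:18281623-18281872 on the minus strand, and FOSL2 from chr2:28392608-28392801 on the plus strand. Capitals mark CArG boxes, TGACGT on either strand (ACGTCA on the other) and GCGNGGGCG, a form of the EGR binding site.
EGR1: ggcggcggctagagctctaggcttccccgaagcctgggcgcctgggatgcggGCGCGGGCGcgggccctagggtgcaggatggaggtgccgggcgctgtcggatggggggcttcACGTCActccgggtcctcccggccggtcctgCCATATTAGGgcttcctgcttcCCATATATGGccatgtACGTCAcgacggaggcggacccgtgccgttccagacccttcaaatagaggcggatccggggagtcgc
EGR2: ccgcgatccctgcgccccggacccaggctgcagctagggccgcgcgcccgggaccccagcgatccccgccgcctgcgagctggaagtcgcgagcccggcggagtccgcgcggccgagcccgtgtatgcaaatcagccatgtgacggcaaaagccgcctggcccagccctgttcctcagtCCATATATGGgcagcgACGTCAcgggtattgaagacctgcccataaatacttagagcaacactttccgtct
FOS: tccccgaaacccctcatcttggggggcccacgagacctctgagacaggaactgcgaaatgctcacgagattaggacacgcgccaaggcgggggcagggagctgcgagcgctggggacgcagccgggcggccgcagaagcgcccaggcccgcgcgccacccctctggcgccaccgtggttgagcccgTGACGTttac
FOSB: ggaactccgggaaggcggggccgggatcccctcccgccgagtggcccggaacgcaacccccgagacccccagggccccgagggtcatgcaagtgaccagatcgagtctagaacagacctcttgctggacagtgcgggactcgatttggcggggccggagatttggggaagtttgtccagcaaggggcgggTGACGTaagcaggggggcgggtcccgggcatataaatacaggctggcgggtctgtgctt
FOSL2: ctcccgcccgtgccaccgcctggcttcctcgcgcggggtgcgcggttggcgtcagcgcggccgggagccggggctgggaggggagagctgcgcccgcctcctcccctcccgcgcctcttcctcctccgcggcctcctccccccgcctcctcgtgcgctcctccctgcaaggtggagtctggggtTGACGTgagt
JUND: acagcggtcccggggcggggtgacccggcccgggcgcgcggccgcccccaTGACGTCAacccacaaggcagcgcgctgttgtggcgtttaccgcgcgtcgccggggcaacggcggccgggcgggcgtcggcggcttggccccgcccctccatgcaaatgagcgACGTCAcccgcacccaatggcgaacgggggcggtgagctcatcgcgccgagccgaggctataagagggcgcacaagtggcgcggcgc

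EGR1 held 2 CArG boxes, at 105 to 96 and at 83 to 74 bases before the start. It also held 2 ACGTCA elements, at 136 to 131 and at 67 to 62 bases, and an EGR site at 198 to 190 bases. The EGR2 window shown held a CArG box at 71 to 62 bases next to an ACGTCA at 55 to 50 bases. EGR2 windows at the starts chr10:62819167 and chr10:62818775 held none of the marked elements. FOS and FOSB each had a TGACGT close to the start, at 64 to 59 and at 60 to 55 bases, and FOSL2 had one at 66 to 61 bases. JUND had the palindrome TGACGTCA, which is TGACGT overlapping its own reverse complement, at 200 to 193 bases and an ACGTCA at 87 to 82 bases. Of 35116 promoter windows of 250 bases in the RefSeq table, 1.16% held a CArG box, 7.10% held TGACGT and 8.41% held GCGNGGGCG. A further pattern, TGANTCA, was in 6.57%. It is a loose form of the AP-1 site that takes any middle base. Each was sought on either strand. Among 12 windows of 9 of the genes, 2 held a CArG box, 6 held TGACGT, 1 held GCGNGGGCG and 0 held TGANTCA. These matches describe the letters of the windows only. FOSL1 had no entry in the RefSeq table, and the window of JUN, which is among the 12, lay wholly in an annotated exon. Exon bases were kept in these counts, and bases more than 250 before a start were not searched.

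Levels of different genes were compared in the authors' RPKM, which divide reads by exon length and by scaled library size. JUND, the JUN protein that most cells carry at rest, led in KG1A with 64.4 RPKM in dG and 51.3 RPKM in PBS. FOSL2, a FOS relative without the strong activation domain of FOS, followed with 18.4 RPKM in KG1A dG and 17.4 RPKM in KG1A PBS. JUNB came next, with 12.2 RPKM in KG1A dG and 8.19 RPKM in KG1A PBS. In U937 the order differed: JUNB led with 31.1 RPKM in dG and 24.2 RPKM in PBS. FOSL2 was at 21.9 RPKM in U937 dG and 10.4 RPKM in U937 PBS, and JUND was at 16.6 RPKM in U937 dG and 14.7 RPKM in U937 PBS. FOSL2 thus stood above JUND in U937 dG and below it in U937 PBS, and the 2 libraries of each group kept that order.

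The lower ranks of KG1A ran FOSL1, ATF3, FOS and EGR1 in both treatments. Under dG they went on with JUN, EGR2 and FOSB, and no neighbours in the KG1A dG order overlapped between libraries. In KG1A PBS they went on with EGR2, FOSB and JUN, and EGR1 overlapped EGR2, EGR2 overlapped FOSB and FOSB overlapped JUN. JUN, at 0.270 RPKM in KG1A dG and 0.118 RPKM in KG1A PBS, was among the 3 lowest in both. In U937 JUN and FOS held the places after the leading 3, with JUN at 11.7 RPKM in dG and 8.48 RPKM in PBS and FOS at 8.89 RPKM in dG and 6.42 RPKM in PBS. The remaining order in U937 dG was ATF3, EGR1, FOSB, EGR2 and FOSL1, where FOSB and EGR2 overlapped. In U937 PBS it was FOSL1, EGR1, ATF3, FOSB and EGR2, where FOSL1 overlapped EGR1, ATF3 overlapped FOSB and FOSB overlapped EGR2. ATF3 and FOSL1 therefore changed places in U937, with ATF3 at 2.82 RPKM in dG and 0.668 RPKM in PBS and FOSL1 at 0.334 RPKM in dG and 1.51 RPKM in PBS.

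**Figure D1:**
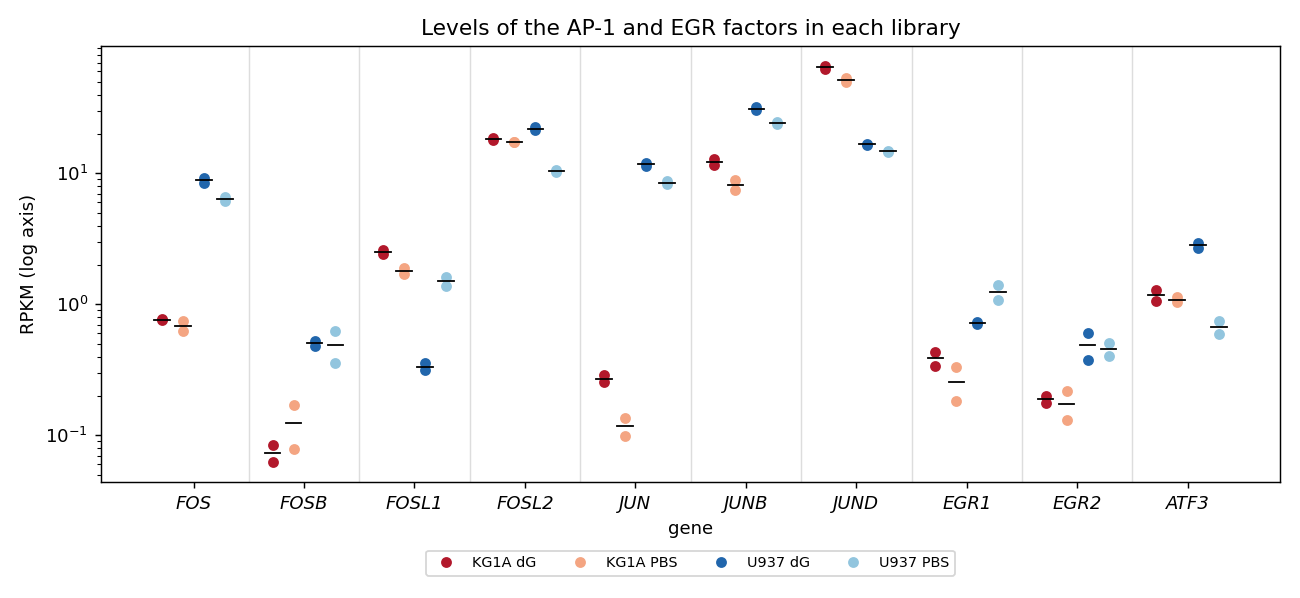
Level of each of the 10 genes in the authors' RPKM on a log axis, with 1 point per library, a line at the mean and colours for the 4 groups. JUN averages 11.7 RPKM in U937 dG and 8.48 RPKM in U937 PBS but 0.270 RPKM in KG1A dG and 0.118 RPKM in KG1A PBS, and ATF3 and FOSL2 in U937 are higher in dG than in PBS.

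The 4 FOS family genes answered dG unequally, and FOSL1 moved in opposite directions in the 2 lines. Each gene was tested with edgeR's quasi-likelihood test over all 8 libraries, with Benjamini-Hochberg adjusted p-values over 18314 genes, and each log2 fold change is given ± SE. FOSL2 lay at 156 and 150.2 CPM in U937 dG, against 77.2 and 74.6 CPM in U937 PBS. Both dG libraries thus stood far above both PBS libraries, a 2.01-fold rise (log2 fold change 1.01 ± 0.04, adjusted p = 2.64e-22). In KG1A, FOSL2 lay at 138 and 133 CPM in dG, against 122.4 and 122.3 CPM in PBS. This rise of 1.11-fold passed the test (0.15 ± 0.04, adjusted p = 0.00150) but its call was lost under 7 of 17 alternatives. There the log2 fold change was down to 0.08, over an adjusted p range of 0.00127 to 0.232 in all 17, with 0.0645 under scaling by library size alone and 0.107 without U937 dG replicate 1 or without U937 dG replicate 2. FOSL2 (chr2:28392448-28417312, GRCh38, plus strand) shares no exon base with its antisense gene FLJ31356, which averaged 0.875 counts.

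FOSL1, a FOS relative often raised with sustained kinase signalling (chr11:65892049-65900573, minus strand), lay at 0.647 and 0.582 CPM in U937 dG, against 3.11 and 2.67 CPM in U937 PBS. That is 15 and 12 counts in the dG libraries and 99 and 67 counts in the PBS libraries, and FOSL1 fell by 2.23 ± 0.26 on the log2 scale (adjusted p = 1.37e-09). In KG1A, FOSL1 lay at 4.73 and 5.09 CPM in dG, against 3.51 and 3.15 CPM in PBS. It rose 1.48-fold there (0.56 ± 0.15, adjusted p = 0.00202), with no overlap between dG and PBS. DESeq2's Wald test did not call this rise, with an adjusted p of 0.123 in a range of 0.00169 to 0.123 over 17 alternatives.

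FOS itself (chr14:75278774-75282230, plus strand), the founding member of the family, lay at 29.1 and 26.9 CPM in U937 dG, against 20.3 and 21.9 CPM in U937 PBS. The groups did not overlap, and FOS rose 1.33-fold (0.41 ± 0.08, adjusted p = 9.25e-06). In KG1A, FOS lay at 2.56 and 2.54 CPM in dG, against 1.99 and 2.36 CPM in PBS. This difference did not pass the test (0.22 ± 0.19, adjusted p = 0.361). FOSB (chr19:45467995-45475179, plus strand), the close relative of FOS, had 10 and 12 counts in KG1A dG, against 10 and 27 counts in KG1A PBS, and 66 and 54 counts in U937 dG, against 64 and 89 counts in U937 PBS. Its dG and PBS libraries overlapped in both lines, and neither difference passed the test (KG1A -0.76 ± 0.45, adjusted p = 0.170, and U937 0.02 ± 0.22, adjusted p = 0.970). Without the first KG1A PBS library FOSB was called lower in KG1A (-1.15, adjusted p = 0.0413, range 0.0413 to 0.988 over 17 alternatives). FOSB lies within the span of ERCC1 on the opposite strand without a shared exon base, and ERCC1 averaged 1772 counts.

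All 3 JUN family genes rose in KG1A, and JUN and JUNB rose in U937. JUNB (chr19:12791496-12793315, plus strand), a JUN relative with a weaker activation domain, lay at 24.0 and 21.6 CPM in KG1A dG, against 13.5 and 15.8 CPM in KG1A PBS. In U937 it lay at 53.3 and 56.9 CPM in dG, against 45.0 and 44.3 CPM in PBS. Both dG libraries were above both PBS libraries in each line. JUNB rose 1.55-fold in KG1A (0.63 ± 0.08, adjusted p = 1.69e-08) and 1.23-fold in U937 (0.30 ± 0.06, adjusted p = 2.84e-05). JUNB shares 259 exon bases with HOOK2 on the opposite strand, the strand setting was not given in the sources used here, and HOOK2 averaged 330 counts, so reads of the shared bases are uncertain. JUND (chr19:18279760-18281622, minus strand) lay at 127 and 120.3 CPM in KG1A dG, against 90.9 and 97.0 CPM in KG1A PBS. It rose 1.32-fold in KG1A (0.40 ± 0.04, adjusted p = 8.51e-10), again with no overlap. In U937, JUND lay at 30.0 and 30.3 CPM in dG, against 27.5 and 28.2 CPM in PBS. The U937 libraries did not overlap either, but the difference did not pass the test (0.12 ± 0.06, adjusted p = 0.0995). JUND was called higher in U937 under 6 of 17 alternatives, at 0.17 to 0.21, with DESeq2 size factors among them (adjusted p = 0.00384, range 0.00384 to 0.572).

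JUN (chr1:58780788-58784327, minus strand), the strongest activator of the family and a gene that its own protein can switch on, lay at 41.0 and 39.7 CPM in U937 dG, against 31.1 and 29.9 CPM in U937 PBS. It rose 1.32-fold there (0.40 ± 0.06, adjusted p = 9.22e-07), with no overlap. In KG1A, JUN had 26 counts in each dG library, against 11 and 10 counts in the PBS libraries, or 0.924 and 1.05 CPM in dG, against 0.477 and 0.342 CPM in PBS. At these low counts JUN rose 2.43-fold in KG1A (1.28 ± 0.34, adjusted p = 0.00167). Without the second KG1A PBS library the KG1A call was lost (1.04, adjusted p = 0.0510, range 0.00162 to 0.0510 over 17 alternatives).

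EGR1 fell in U937 and EGR2 was not called in either line. EGR1 (chr5:138465490-138469315, plus strand), a zinc finger factor tied to monocyte development, lay at 2.24 and 2.183 CPM in U937 dG, against 3.42 and 4.50 CPM in U937 PBS. That is 52 and 45 counts in dG, against 109 and 113 counts in PBS, and both dG libraries were below both PBS libraries. EGR1 fell by 0.82 ± 0.20 on the log2 scale in U937 (adjusted p = 0.000409), while DESeq2's Wald test gave -0.75 with an adjusted p of 0.0806 (range 7.08e-05 to 0.0806 over 17 alternatives). In KG1A, EGR1 lay at 1.102 and 1.41 CPM in dG, against 0.564 and 1.03 CPM in PBS. These are 31 and 35 counts in dG, against 13 and 30 counts in PBS. The dG libraries stood above the PBS libraries, but the difference did not pass the test (0.60 ± 0.31, adjusted p = 0.104). It was called higher without the second KG1A PBS library (1.14, adjusted p = 0.0268, range 0.0268 to 0.551 over 17 alternatives). EGR2 (chr10:62811996-62919900, minus strand), the relative of EGR1 that shares its DNA site, lay at 0.675 and 0.767 CPM in KG1A dG, against 0.477 and 0.787 CPM in KG1A PBS. In U937 it lay at 1.34 and 2.183 CPM in dG, against 1.51 and 1.91 CPM in PBS. The groups overlapped in both lines, with log2 fold changes of 0.15 ± 0.37 in KG1A (adjusted p = 0.796) and 0.04 ± 0.25 in U937 (adjusted p = 0.918). With 11 to 48 counts a library, changes of EGR2 larger than these errors could also go uncalled, as EGR1 at 0.60 ± 0.31 did in KG1A.

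ATF3 (chr1:212565334-212620777, plus strand), the stress-induced bZIP factor, rose most among the 10 genes in U937. It lay at 10.6 and 11.6 CPM in U937 dG, against 2.42 and 3.07 CPM in U937 PBS. That is 245 and 240 counts in dG, against 77 counts in each PBS library. ATF3 rose 4.09-fold there (2.03 ± 0.14, adjusted p = 2.03e-15). In KG1A, ATF3 lay at 4.41 and 5.41 CPM in dG, against 4.51 and 4.10 CPM in PBS. The KG1A groups overlapped, and the difference did not pass the test (0.19 ± 0.15, adjusted p = 0.315).

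**Figure D2:**
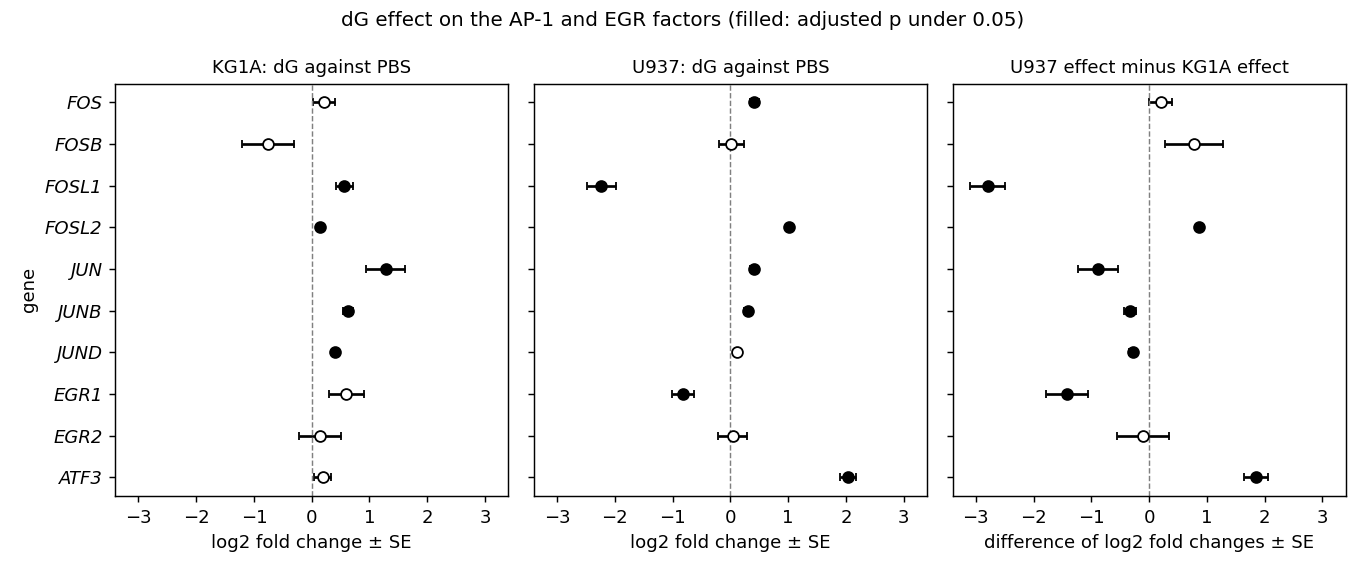
Log2 fold change of dG against PBS for the 10 genes in KG1A (left) and in U937 (middle) and the U937 effect minus the KG1A effect (right), with bars of 1 SE from the edgeR fit and filled points for calls. FOSL1 lies at 0.56 in KG1A and -2.23 in U937, and ATF3 at 0.19 in KG1A and 2.03 in U937.

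Of the 10 genes, all of which were tested, 5 were called higher in KG1A (FOSL1, FOSL2, JUN, JUNB and JUND) and 0 were called lower. Across all tested genes 49.1% were called in KG1A, 29.6% higher and 19.6% lower. In U937, 5 genes were called higher (FOS, FOSL2, JUN, JUNB and ATF3) and 2 lower (FOSL1 and EGR1), while 64.0% of all genes were called there, 32.4% higher and 31.5% lower. The share of the 10 genes called lies near the share of all genes called, so the counts alone show nothing particular to them. The median log2 fold change of the 10 genes was 0.31 in KG1A, beside 0.04 over all genes, and 0.21 in U937, beside 0.00 over all genes.

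The dG effect differed between the lines for 7 of the 10 genes, tested as the U937 effect minus the KG1A effect, while 44.1% of all genes were called in that test. By direction, 2 genes were more positive and 5 more negative in U937, beside 17.6% and 26.4% of all genes. The dG effect was more positive in U937 for ATF3 (1.84 ± 0.21, adjusted p = 1.94e-09) and FOSL2 (0.86 ± 0.06, adjusted p = 1.80e-15). It was more negative in U937 for FOSL1 (-2.80 ± 0.30, adjusted p = 7.08e-10) and EGR1 (-1.42 ± 0.36, adjusted p = 0.00141). These 4 differences kept their calls under all 16 alternatives, though that of EGR1 rests on 13 to 35 counts a library in KG1A. JUN (-0.88 ± 0.35, adjusted p = 0.0383), JUNB (-0.33 ± 0.10, adjusted p = 0.00618) and JUND (-0.28 ± 0.08, adjusted p = 0.00251) were also more negative in U937, but each lost its call under 8 to 10 of the 16 alternatives. With DESeq2 size factors, for example, the difference was -0.78 for JUN (adjusted p = 0.0716, range 0.0349 to 0.291), -0.23 for JUNB (0.0603, range 0.000834 to 0.405) and -0.18 for JUND (0.0549, range 0.000575 to 0.237). JUN lost its call without any 1 of 6 libraries (all but KG1A PBS replicate 1 and U937 PBS replicate 2), JUNB without KG1A PBS replicate 1, KG1A dG replicate 1 or either U937 dG library, and JUND without either U937 dG library. JUN changed sign to 0.24 under 2 further alternatives, both on the scale of log2(RPKM + 1), which understates changes of low genes. The adjusted p of 0.0349 that opens its range comes from this reversed call. JUN thus kept its call and sign under 4 of the 16 alternatives. The median difference over all genes was -0.10 with the main scaling and 0.00 with DESeq2 size factors. No difference was called for FOS (0.20 ± 0.20, adjusted p = 0.466), FOSB (0.78 ± 0.50, adjusted p = 0.227) or EGR2 (-0.10 ± 0.44, adjusted p = 0.925). FOS was called on the scale of log2(RPKM + 1) (0.35, adjusted p = 0.0183, range 0.0183 to 0.953). FOSB was called without the second U937 PBS library (1.19, adjusted p = 0.0443, range 0.0443 to 1.00).

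In PBS the lines themselves differed for 9 of the 10 genes, while 82.3% of all genes were called between them. JUN had 991 and 749 counts in U937 PBS, against 11 and 10 counts in KG1A PBS, a 75.1-fold higher level in U937 (log2 fold change 6.23 ± 0.15, adjusted p = 3.62e-30). FOS was 9.56-fold higher in U937 (3.26 ± 0.12), EGR1 4.74-fold higher (2.25 ± 0.23) and JUNB 3.03-fold higher (1.60 ± 0.07). FOSB (1.93 ± 0.29) and EGR2 (1.37 ± 0.30, adjusted p = 8.77e-05) were higher in U937 as well. JUND was lower in U937 (-1.76 ± 0.05), as were FOSL2 (-0.69 ± 0.04) and ATF3 (-0.66 ± 0.16, adjusted p = 0.000431). The genes thus split into 6 higher and 3 lower in U937, beside 41.4% and 40.8% of all genes, and the adjusted p of the ones given without it was 1.92e-07 or less. FOSL1 did not pass the test (-0.19 ± 0.17, adjusted p = 0.301), with 3.11 and 2.67 CPM in U937 PBS and 3.51 and 3.15 CPM in KG1A PBS. These values compare the 2 lines and no wider class of leukaemia.

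Summed per family in RPKM, transcripts of the FOS family came mostly from FOSL2 in KG1A. FOSL2 made up 84.5% ± 0.851 of the family in KG1A dG and 87.0% ± 0.029 in KG1A PBS (SD, n = 2). In U937 it made up 69.3% ± 0.652 in dG and 55.4% ± 1.72 in PBS, and no library of one treatment overlapped the other there. FOS held 28.0% in U937 dG and 34.02% in U937 PBS, a smaller share in dG although its own level rose. FOSL1 held 1.06% in U937 dG and 7.997% in U937 PBS, and 11.6% in KG1A dG and 8.98% in KG1A PBS. The family sum was 32.7 and 30.7 RPKM in U937 dG, against 18.9 and 18.8 RPKM in U937 PBS. In KG1A it was 22.0 and 21.5 RPKM in dG, against 19.9 and 20.0 RPKM in PBS. The sums are descriptions of mRNA and say nothing of protein or of which dimers form.

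The JUN family was divided differently in the 2 lines. JUND made up 83.8% ± 0.434 in KG1A dG and 86.1% ± 0.757 in KG1A PBS, against JUNB at 15.8% in KG1A dG and 13.7% in KG1A PBS (SD, n = 2). In U937 JUNB led with 52.3% in dG and 51.0% in PBS, followed by JUND with 28.0% ± 0.396 in dG and 31.1% ± 0.706 in PBS and JUN with 19.7% in dG and 17.9% in PBS. JUN held 0.353% of the family in KG1A dG and 0.199% in KG1A PBS. The JUN family sum was 79.4 and 74.3 RPKM in KG1A dG, against 57.2 and 62.0 RPKM in KG1A PBS. In U937 it was 58.9 and 59.9 RPKM in dG, against 47.9 and 46.9 RPKM in PBS, so both sums were higher in dG without overlap.

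**Figure D3:**
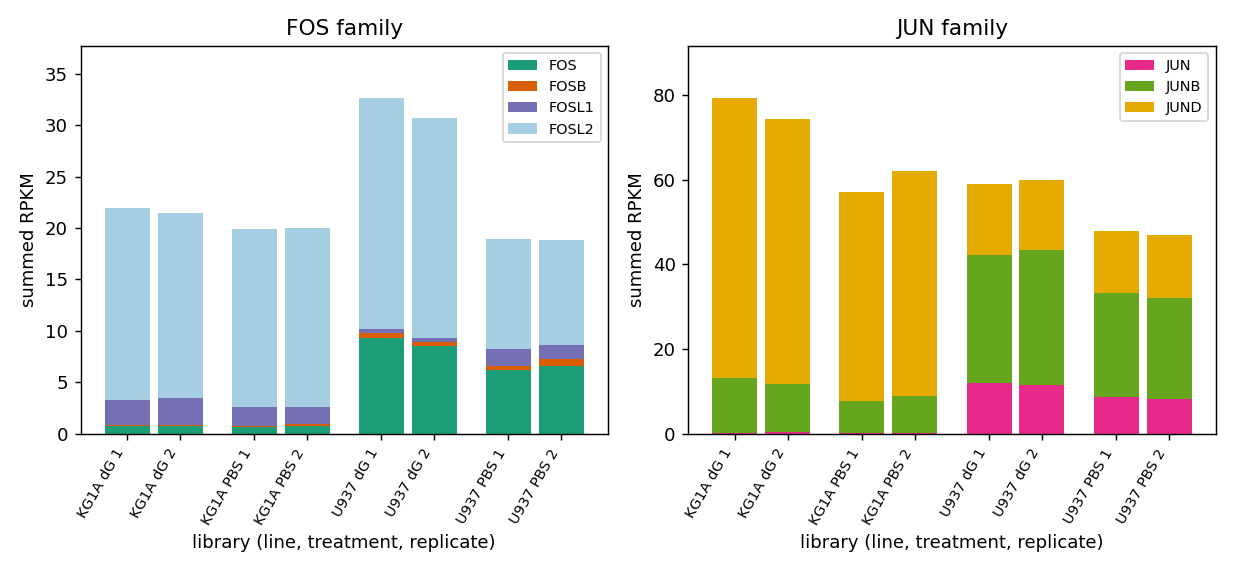
Summed RPKM of the FOS family and of the JUN family in each of the 8 libraries, with bars stacked by gene. FOSL2 averages 55.4% of the FOS family in U937 PBS and 87.0% in KG1A PBS, and JUND averages 31.1% of the JUN family in U937 PBS and 86.1% in KG1A PBS.

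The genes around AP-1 and EGR were then counted in 5 lists that were drawn up with earlier results of these data known. Of 26 tested immediate early genes other than the members, 19 were higher and 2 lower in U937, beside 32.4% and 31.5% of all genes. Their median log2 fold change there was 1.11 over the 25 genes above a floor of 3 counts, beside -0.02 over all such genes. The 2 lower became 1 without U937 dG replicate 1 and 0 without U937 dG replicate 2 or with DESeq2 size factors. In KG1A, 13 were higher and 2 lower, beside 29.6% and 19.6% of all genes, with a median of 0.32 over 23 genes, beside 0.06 over all such genes. SGK1, a kinase induced by serum and hormones, lay at 362 and 345 CPM in U937 dG, against 44.3 and 43.5 CPM in U937 PBS (3.01 ± 0.04, adjusted p = 6.25e-36). In KG1A SGK1 rose by 0.76 ± 0.12 (adjusted p = 2.66e-06), and the effect in U937 was larger by 2.24 ± 0.14. GADD45B (2.90 ± 0.04), a growth arrest gene, PIM1 (2.73 ± 0.04), a survival kinase, and IER3 (2.50 ± 0.15) also rose in U937, each with an adjusted p of 6.58e-17 or less. BTG2, an antiproliferative gene, led in KG1A with 39.2 and 38.8 CPM in dG, against 10.4 and 12.7 CPM in PBS (1.75 ± 0.08, adjusted p = 3.26e-20). TRIB1 (0.74 ± 0.08, adjusted p = 4.44e-10) rose in KG1A, whereas DUSP2, a nuclear phosphatase of mitogen-activated kinases, fell there by 0.80 ± 0.15 (adjusted p = 2.48e-05). The signed U937 effect minus the KG1A effect was called positive for 16 of these 26 genes and negative for 2, beside 17.6% and 26.4% of all genes.

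Other bZIP genes numbered 25 tested, and which of them pair with the members was not measured. In U937, 16 were higher and 5 lower, beside 32.4% and 31.5% of all genes. In KG1A, 11 were higher and 3 lower, beside 29.6% and 19.6%. Their median was 0.44 in U937, beside -0.02 over all such genes, and 0.22 over 22 genes in KG1A, beside 0.06. MAFF, a small MAF protein, lay at 38.2 and 38.4 CPM in U937 dG, against 8.85 and 8.29 CPM in U937 PBS (2.16 ± 0.08, adjusted p = 8.80e-23). DDIT3, the stress factor CHOP, lay at 64.6 and 61.2 CPM in U937 dG, against 15.1 and 13.99 CPM in U937 PBS (2.11 ± 0.07, adjusted p = 3.45e-24). BATF3, a factor of dendritic cells, fell by 1.74 ± 0.13 in U937 (adjusted p = 4.23e-14). NFE2, an erythroid and megakaryocyte factor, lay at 26.6 and 25.2 CPM in KG1A dG, against 7.46 and 7.29 CPM in KG1A PBS (1.82 ± 0.09, adjusted p = 1.82e-19). NFE2 fell by 0.80 ± 0.07 in U937 (adjusted p = 7.51e-13), and its effect differed between the lines by -2.62 ± 0.11 (adjusted p = 8.74e-21). MAFF (0.69 ± 0.14), BACH1 (0.51 ± 0.04) and MAFG (0.48 ± 0.06), which can form dimers with each other, rose in KG1A with an adjusted p of 6.72e-05 or less.

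Of the 5 EGR relatives and corepressors, 3 were higher and 0 lower in KG1A, beside 29.6% and 19.6% of all genes, and 1 was higher and 1 lower in U937, beside 32.4% and 31.5%. The U937 count became 2 higher without U937 dG replicate 1, without U937 dG replicate 2 or with DESeq2 size factors. NAB2, the corepressor that EGR1 induces, lay at 11.6 and 10.7 CPM in KG1A dG, against 5.64 and 5.54 CPM in KG1A PBS (1.00 ± 0.11, adjusted p = 1.82e-09). It was not called in U937 (0.18 ± 0.10, adjusted p = 0.117), and the effects differed by -0.82 ± 0.15 (adjusted p = 2.29e-05). NAB1 rose in both lines, by 0.43 ± 0.05 in KG1A (adjusted p = 3.44e-10) and by 0.74 ± 0.05 in U937 (adjusted p = 9.82e-17). WT1, a zinc finger factor with an EGR-like DNA site, rose by 0.63 ± 0.06 in KG1A (adjusted p = 1.82e-11). In U937 WT1 was low, at 0.0862 and 0.631 CPM in dG, against 2.32 and 2.43 CPM in PBS, and fell by 2.77 ± 0.33 on the log2 scale (adjusted p = 3.53e-09). EGR3 was not called in either line, and EGR4 was not called in KG1A and had 0 reads in all U937 libraries.

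Among 27 upstream kinases and factors that they act on, such as the ELK and MKL partners of serum response factor, medians were 0.14 over 26 genes in KG1A, beside 0.06 over all such genes, and 0.13 in U937, beside -0.02. In KG1A 12 were higher and 4 lower, beside 29.6% and 19.6% of all genes. In U937 14 were higher and 3 lower, beside 32.4% and 31.5%. In either direction, 49.1% of all genes were called in KG1A and 64.0% in U937. The U937 count of 17 in 27 is at that background, though more of its calls were higher than lower. The U937 counts came to 7 in each direction when scaled by library size alone, and leaving out U937 PBS replicate 2 gave 9 higher. ELK3, a partner of serum response factor, rose by 0.95 ± 0.04 in U937 (adjusted p = 1.65e-22) and by 0.51 ± 0.04 in KG1A (adjusted p = 1.93e-13). RPS6KA5, a kinase of CREB and histones, rose by 0.83 ± 0.06 in U937 (adjusted p = 6.52e-14) and by 0.84 ± 0.05 in KG1A (adjusted p = 1.41e-16). ELK4 (0.76 ± 0.04) and BRAF (0.75 ± 0.05) rose in U937, each with an adjusted p of 1.87e-15 or less. MAP2K1 rose by 0.44 ± 0.05 in KG1A (adjusted p = 1.89e-09), whereas MAP2K6, a kinase of the p38 branch, fell there by 1.06 ± 0.13 (adjusted p = 6.43e-09).

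Of 28 tested genes described as AP-1 or EGR targets, 21 were higher and 2 lower in U937, beside 32.4% and 31.5% of all genes. Their median there was 1.02 over 27 genes, beside -0.02 over all such genes. In KG1A, 13 were higher, 2 lower and 13 not called, beside 29.6% higher and 19.6% lower of all genes, with a median of 0.77 over 23 genes, beside 0.06. Of the 2 lower, 1 was left without U937 PBS replicate 2 or U937 dG replicate 2 in U937, and without KG1A PBS replicate 1 or KG1A dG replicate 1 in KG1A. MMP1, a collagenase, lay at 527 and 499.6 CPM in U937 dG, against 11.6 and 10.6 CPM in U937 PBS (5.53 ± 0.05, adjusted p = 1.39e-40). ITGAX, the CD11c integrin chain, lay at 76.5 and 87.1 CPM in U937 dG, against 6.81 and 7.53 CPM in U937 PBS (3.52 ± 0.08, adjusted p = 2.69e-29). In KG1A ITGAX lay at 4.73 and 6.14 CPM in dG, against 0.433 and 0.547 CPM in PBS (3.43 ± 0.24, adjusted p = 1.40e-14), and the 2 effects were not called different (0.09 ± 0.39, adjusted p = 0.930). PLAU, a plasminogen activator, rose by 2.39 ± 0.04 in U937 (adjusted p = 6.72e-35) and by 1.55 ± 0.15 in KG1A (adjusted p = 2.44e-11). VIM, vimentin, rose by 2.63 ± 0.04 in U937 (adjusted p = 4.07e-36). ICAM1 (1.82 ± 0.08), an adhesion receptor, and PLAUR (1.35 ± 0.08), the PLAU receptor, rose in KG1A, each with an adjusted p of 7.57e-17 or less. The activity of AP-1 and EGR proteins was not measured.

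**Figure D4:**
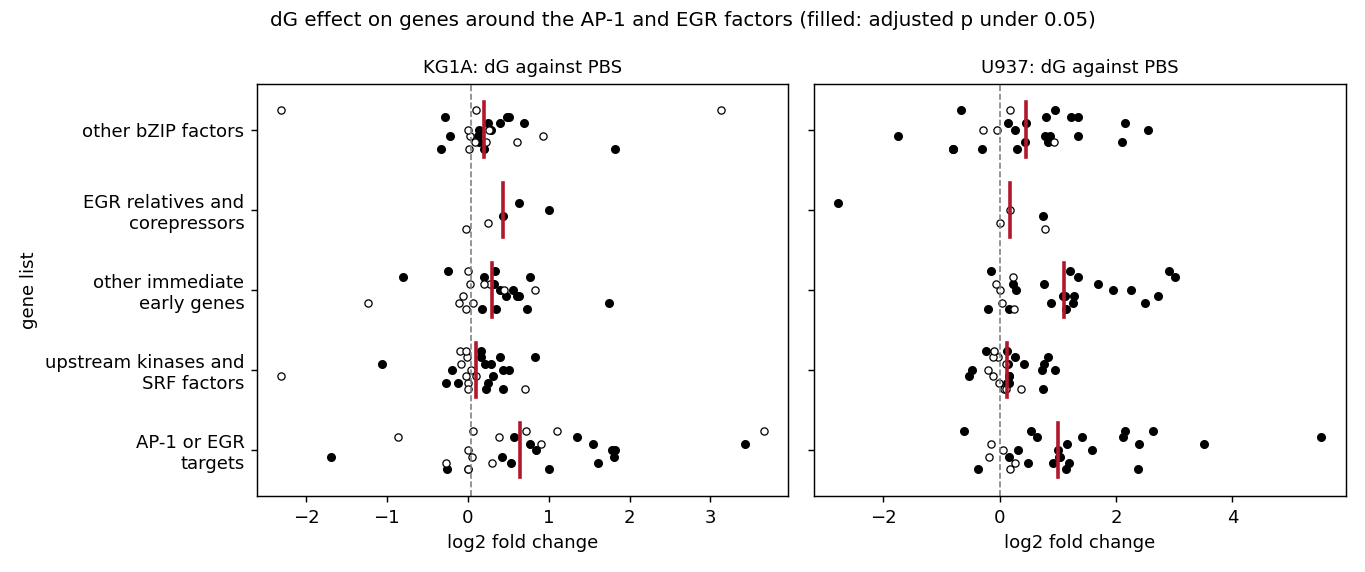
Log2 fold change of dG against PBS for the tested genes of the 5 surrounding lists in KG1A and in U937, with 1 point per gene, filled where called, red lines at each list's median over its tested genes and a dashed line at the median of all genes. EGR4, with 0 reads in U937, is drawn at 0 there. The other immediate early genes lie higher in U937, where 19 of 26 were called higher, than in KG1A, where 13 of 26 were.

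The genes whose pattern over the 8 libraries was most like that of FOS, JUN and EGR1 were sought among 9464 genes by the Euclidean distance of log2 CPM centred on each gene's mean. Nearest to FOS were THRA at a distance of 0.301, DYRK3 at 0.340 and SEMA4B at 0.350. THRA averaged 80.0 CPM in U937 dG, 58.4 CPM in U937 PBS, 6.95 CPM in KG1A dG and 6.80 CPM in KG1A PBS, so THRA too was higher in U937 and, within U937, higher in dG. Nearest to JUN were S100A6 at 0.606, SMARCD3 at 0.676 and PLXNC1 at 0.677. Nearest to EGR1 were TNN at 0.589, SLC16A3 at 0.787 and SHMT2 at 0.789, all lower in U937 dG than in U937 PBS. SHMT2, a mitochondrial enzyme of folate metabolism, averaged 176 CPM in U937 dG and 268 CPM in U937 PBS, and 95.4 CPM in KG1A dG and 69.9 CPM in KG1A PBS. The distance takes in the gap between the lines as well as the dG effects, and it is given as a description with no test.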

How the data were processed

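The mRNA libraries of 8 samples were grouped by the cell line and treatment in the sample titles. The authors deposited whole-number read counts per gene and RPKM values. Per the submitters' processing notes, the build was hg38 (GRCh38) and the tools were HTSeq 0.11.2, TopHat2 and bcl2fastq 2.18.0.12, and the strand setting is not given in the sources used here. The deposited RPKM could be rebuilt as counts per kilobase and per TMM-scaled library.

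Counts were tested with edgeR 4.0.16 under R 4.3.3 (quasi-likelihood F test, two-sided, filterByExpr, TMM, 4 group means over 8 libraries, 4 residual degrees of freedom). Adjusted p-values are Benjamini-Hochberg over 18314 genes, with a threshold of 0.05. The common biological coefficient of variation of the edgeR fit, 1 value for all genes beyond counting error, was 2.51%. The median prior degrees of freedom were 31.0. Alternatives were library size alone, DESeq2 size factors, DESeq2 1.42.0, no filter, 4 libraries alone, RPKM with pseudocounts of 1 and 0.1 in limma 3.58.1, the replicate number as a block, and each library left out.

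The members and the lists were chosen with earlier results of these data known. Named were all 10 members and, per list and line, up to 4 called genes with the largest change, a mean of at least 1 CPM and no overlap between treatments. A gene that this rule takes is not reported here. The library totals (21053724 to 31135338 counts) set the counting error, and reads carry no molecular identifiers.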

Additional observations from a re-analysis of the deposited data

Results flagged for a closer look

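The dG effect differed between U937 and KG1A, by the test of the difference itself, for 7 of the 10 genes, beside 44.1% of all genes. As the U937 effect minus the KG1A effect on the log2 scale, the values were -2.80 for FOSL1, 0.86 for FOSL2, -0.88 for JUN, -0.33 for JUNB, -0.28 for JUND, -1.42 for EGR1 and 1.84 for ATF3. FOSL1 is the member whose call in U937 is lower and whose call in KG1A is higher. The calls of JUN, JUNB and JUND were lost with DESeq2 size factors, at -0.78, -0.23 and -0.18. In KG1A the JUN difference rests on 10 to 26 counts a library and the EGR1 difference on 13 to 35.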

How the results depend on the processing

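Of 670 values of the 10 genes under alternatives, 619 kept their call, 38 lost and 11 gained one, and 2 called values changed sign. Uncalled values of EGR2 (both lines and the difference) and of FOSB in U937 also took both signs. The called sign changes were the JUN difference between the lines, at 0.24 with RPKM at pseudocount 1 (adjusted p = 0.0349) and again unfiltered (adjusted p = 0.0499). Of 629 values of named list genes, 628 kept theirs, and WT1 in KG1A lost its call with RPKM at pseudocount 0.1 (0.56, adjusted p = 0.186). The named list genes were picked from these data as called genes with the largest changes. Their kept calls therefore cannot speak for the lists as a whole.

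Leaving out each library gave 4 to 5 members higher and 0 to 1 lower in KG1A, with the 1 (FOSB) lower without KG1A PBS replicate 1. It gave 5 higher and 2 lower in U937, 6 higher and 3 lower between the lines in PBS, and 2 to 3 higher and 2 to 5 lower for the difference. Over all genes it gave 4521 to 5461 higher and 2953 to 4426 lower in KG1A, and 2845 to 3898 higher and 3266 to 4721 lower for the difference. DESeq2's Wald test gave 1 member lower in U937, 3799 genes lower there and 2940 genes lower for the difference. For the difference, 2 members were lower (5 in the main result) with DESeq2 size factors, DESeq2's Wald test, no filter, and RPKM with pseudocounts of 1, 0.1 and 1 unfiltered. With RPKM at pseudocount 1, filtered or not, 4 members were higher. All genes higher for the difference were 5262, 4865 and 4950 with RPKM at pseudocounts 1, 0.1 and 1 unfiltered, beside 3230. The balance of higher against lower calls for the difference was 3230 against 4841, 4021 against 3898 with DESeq2 size factors, and 4077 against 3490 unfiltered. In KG1A it was 5413 against 3581, and 4085 against 4202 with RPKM at pseudocount 1. With RPKM unfiltered, 7 other bZIP genes (11 in the main result) and 7 kinases and SRF factors (12) were higher in KG1A. The cause of these moves was not tested.

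With replicate numbers as a block, the member counts stayed at 5 higher and 0 lower in KG1A, 5 and 2 in U937, 2 and 5 for the difference and 6 and 3 between the lines. All genes came to 5281 higher and 3461 lower in KG1A and 5865 higher and 5665 lower in U937. Over all 18314 tested genes, same-numbered libraries showed little joint deviation (r = -0.05 in KG1A and 0.01 in U937). With 2 libraries a group these deviations include counting noise, so r cannot decide whether same-numbered samples shared a culture or batch. The fit on the 4 libraries compared was not run for the difference. Depth limits FOSB, EGR1, EGR2 and JUN in KG1A, at 10 to 35 counts a library.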
